A study of Homo sapiens with 2 samples.

Results

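The cells described here are a small set of cells, from a pool labelled OVCAR5, that carried high levels of KRT81, LDHB and S100A9 transcripts, called KRT81-high cells from here on. They were chosen by a readout: a cell counted as KRT81-high where its summed unique molecular identifiers (UMIs, one per captured transcript molecule) of these 3 genes reached 1000 CPM, that is 1000 per 1000000 of its gene UMIs. Cells had to hold at least 500 genes and at most 20% UMIs from mitochondrial genes. Of 7201 such cells, 184 were KRT81-high, a share of 2.56% (exact Clopper-Pearson 95% interval 2.20 to 2.95%), and 7017 were other cells. All intervals given here cover counting error only.

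OVCAR5, the 1 line that the labels name, is an established human ovarian carcinoma line, and the labels give the genotype of all cells as IFNy-sensing reporter, CFP+. Interferon gamma (IFNy) was added to cultures at 1, 10 or 100 ng/ml for 2, 6, 12 or 24 h, beside unstimulated cultures at each of these times and frozen 24 h cultures that were unstimulated or had 100 ng/ml. The 18 conditions, 5 of them unstimulated and 2 of them frozen, were pooled into 1 suspension from which a 3' gene expression library and a hashtag library were made. The sources used here do not give the promoter of the reporter, the clonality of the line or the hashtags of each condition. Cells were therefore grouped by their hashtag pair, the 2 highest of 8 hashtags where the second reached at least 5 times the third plus 1. Of 28 possible pairs, those with under 100 such cells were left out, and their cells count as cells without a pair. This gave 6114 cells in 18 pairs. With 1 pool there are no replicates, cells are not replicates, and no test was made of any difference.

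Interferon gamma binds a receptor of IFNGR1 and IFNGR2 chains, whose kinases JAK1 and JAK2 start the signal. Factors that bind GAS elements then switch on IRF1, and IRF1 binds interferon-stimulated response elements in further genes for antigen presentation, chemokines and antiviral proteins. KRT81 is a type II hair keratin that carcinoma cells can also express, LDHB is the heart-type subunit of lactate dehydrogenase, and S100A9 is a calcium-binding protein best known from myeloid cells and inflamed epithelium.

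The level of the 3 genes separated the cells widely. It was 0 in 6152 cells and above 0 but under 100 CPM in 845 cells. Only 13 cells lay between 100 and 300 CPM and 7 between 300 and 1000, against 19 between 1000 and 2000, 14 between 2000 and 3000, 41 between 3000 and 5000, 88 between 5000 and 10000 and 22 above that. The 5 cells just inside the threshold had 1001, 1019, 1113, 1172 and 1308 CPM, and the 5 just outside had 884, 829, 714, 685 and 631. The median of the KRT81-high cells was 5780 CPM and their highest value was 20038.

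**Figure D1:**
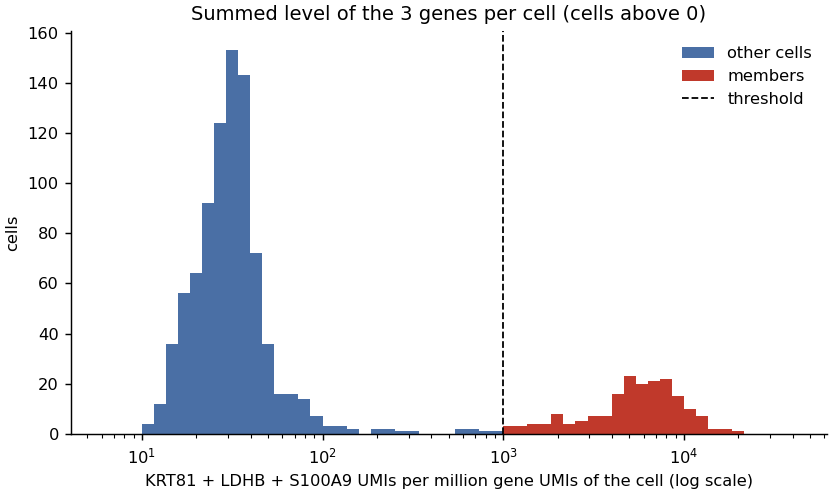
Histogram of the summed KRT81, LDHB and S100A9 UMIs of each cell in CPM (log x axis; y axis, number of cells; cells at 0 not drawn), with the threshold of 1000 as a dashed line. Only 20 cells lie between 100 and 1000 CPM, and 184 lie above.

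KRT81-high cells were found in all 18 hashtag pairs. A pair was found for 119 of the 184 KRT81-high cells (64.7%, interval 57.3 to 71.6%) and for 5995 of the 7017 other cells (85.4%, interval 84.6 to 86.3%). The 119 cells were 1.95% of all cells with a pair (interval 1.61 to 2.32%), and each pair held between 2 and 12 of them, with a median of 6.5. Their share ranged from 1.22 to 2.40% over the 5 pairs with low IRF1 and from 1.20 to 3.17% over the 13 pairs with high IRF1, so that the ranges overlapped. All comparisons with other cells were made within pairs: the level of a gene in KRT81-high cells is its CPM over the 119 cells, and the level in other cells weights each pair by the UMIs of its KRT81-high cells.

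KRT81-high cells had more UMIs and a lower mitochondrial share than other cells. Their median was 45764 UMIs and 6893 genes per cell, against 30991 UMIs and 5563 genes in other cells. Median mitochondrial shares were 5.02% and 11.3%. Within pairs, the median UMI count was higher and the median mitochondrial share lower in KRT81-high cells in 18 of 18 pairs. The part of depth in the differences between the cells was not tested, except that the counts of genes were repeated with cells thinned to one depth and with cells of 20000 to 60000 UMIs alone.

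Some KRT81-high cells also carried transcripts of the other cells. This was read from 13 of the 15 genes that were lowest in KRT81-high cells as a whole (CTNNA1, CYBA and others named with their values in a later paragraph), those whose level in other cells changed under 2-fold with IRF1, and it is a description made after their values were seen. In 111 of the 119 paired cells these genes summed to 2.75% of the level of other cells, with a median of 41570 UMIs per cell. The remaining 8 paired cells were each above 25%, with 48.7% together and a median of 59883 UMIs; 6 of them were in IRF1-high pairs and 2 in IRF1-low pairs. Among the 65 KRT81-high cells without a pair, 53 were above 25%, and the 65 together stood at 48.6% with a median of 56317 UMIs. Of the other cells with a pair, 4 were under 25%. Values without these 8 cells are given beside those named below that they moved by over 1.5 times; some genes with few UMIs are given with them only.

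The 5 markers of these cells stood far above the other cells in every pair. KRT81 (ENSG00000205426, chr12:52285913-52291534 of GRCh38, minus strand) had 2500 CPM in the lowest pair of KRT81-high cells, a median of 5655 over the pairs and 9599 in the highest, against 1.89 to 4.76 CPM in other cells. Its summed level was 5672 CPM against 3.32 CPM, a 1711-fold ratio (interval 1579 to 1857). LDHB ranged from 463 through a median of 683 to 888 CPM over the pairs, with at most 0.861 CPM in other cells and a 1661-fold ratio. S100A9 ranged from 184 through 582 to 1052 CPM, with at most 0.864 CPM in other cells and a 1507-fold ratio. These 3 genes chose the cells, so their height is what the rule asked for.

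SERPINB3 and CDH1 were not in the rule but were read from the same cells. SERPINB3, a serine and cysteine protease inhibitor of squamous epithelium, had 13.6 CPM in the lowest pair, a median of 74.2 and 506 in the highest, against at most 0.180 CPM in other cells. CDH1, the E-cadherin of epithelial junctions, had 7.35, 30.3 and 75.6 CPM, against at most 0.249 CPM. No pair of KRT81-high cells overlapped with any pair of other cells in SERPINB3 and CDH1. The same held for the 3 genes of the rule, where the choice of the cells favours it. Of 8111 genes tested with a mean of at least 10 CPM, 10.2% had every pair of KRT81-high cells above every pair of other cells. For 6.69% every pair was below. After thinning each cell to 10000 UMIs, which kept 173 KRT81-high cells and 6824 others, KRT81 was found in 100.0% of KRT81-high cells and 3.30% of others. The shares were 90.8% against 0.542% for LDHB, 88.4% against 0.410% for S100A9, 40.5% against 0.0440% for SERPINB3 and 24.3% against 0.0879% for CDH1. Without thinning, KRT81 was found in 10.1% of other cells and LDHB in 1.45%. Free RNA was not subtracted.

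Of the 8111 genes tested, 150 (1.85%) were at least 10-fold higher in KRT81-high cells and 90 (1.11%) at least 10-fold lower; 340 (4.19%) were at least 4-fold higher and 261 (3.22%) at least 4-fold lower. Since the cells were picked by a readout, these counts describe the cells and nothing is tested by them. The median log2 ratio over all genes tested was 0.13.

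**Figure D2:**
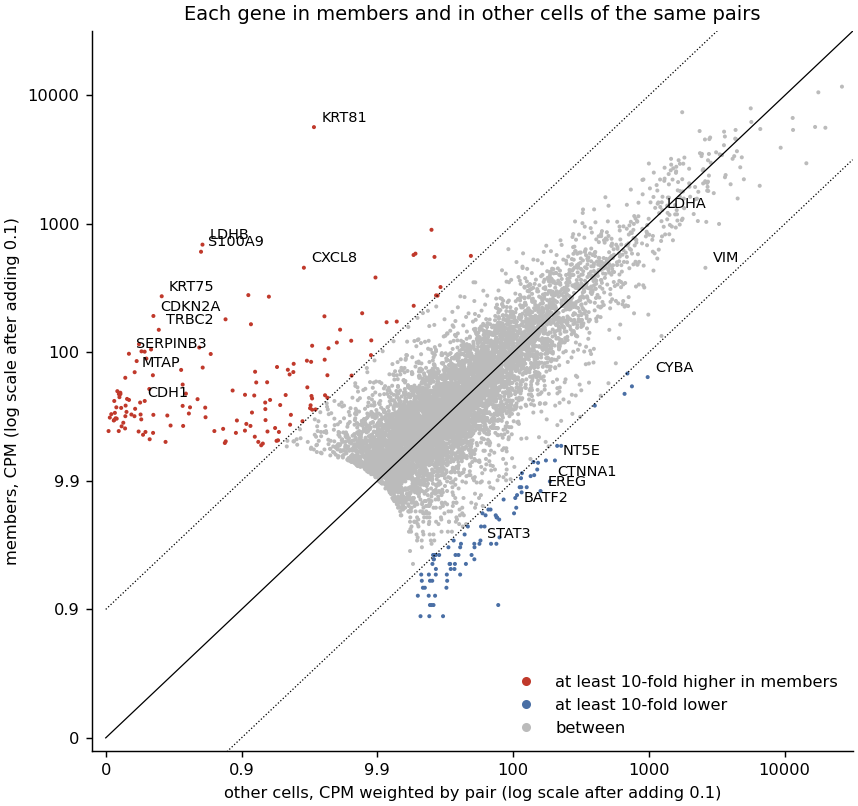
Level of each gene in other cells (x axis, CPM weighted by pair) and in the KRT81-high cells, labelled members (y axis, CPM), both on log axes after adding 0.1; the solid line marks equal levels and the dotted lines 10-fold ratios. 150 genes lie at or above the upper dotted line and 90 at or below the lower one, while LDHA lies on the line of equal levels.

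Among genes at 100 CPM or more, the 15 with the highest ratio included the 3 genes of the rule, and for 14 of them no pair of KRT81-high cells overlapped with a pair of other cells. Picking genes by their ratio in these same cells favours such a separation, which 10.2% of all genes tested had in this direction. KRT75, a hair follicle keratin, was at 274 against 0.158 CPM, and KRT6B, a keratin of activated keratinocytes, at 116 against 0.0758 CPM. CDKN2A, which encodes the p16 and ARF tumour suppressors, had 118 CPM in the lowest pair, a median of 188 and 311 in the highest, while other cells did not pass 0.344 CPM in any pair. BNIP3, a hypoxia-induced mitophagy receptor, was at 105 against 0.116 CPM. PRAC1 stood at 102 against 0.0834 CPM and MIR205HG, the host transcript of miR-205, at 101 against 0.0935 CPM. PI3, the elastase inhibitor elafin, was at 109 against 0.388 CPM.

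Further genes of the 15 had low but measurable levels in other cells. CRABP2, a carrier of retinoic acid, was at 279 against 1.02 CPM, RAMP1, a receptor partner for calcitonin gene-related peptide, at 181 against 0.663 CPM, and S100A14 at 272 against 1.49 CPM. TRBC2, a constant region of the T cell receptor beta chain, was at 150 against 0.146 CPM and had at least 80.9 CPM in every pair. The neutrophil chemokine CXCL8 was the exception to the separation by pair: it ranged from 5.80 through a median of 88.7 to 2042 CPM, and other cells reached 11.5 CPM in 1 pair. The tenth of KRT81-high cells with the most CXCL8 held 71.5% of its UMIs.

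The 15 genes with the lowest ratio, among those at 100 CPM or more in other cells, stood at 5.18 to 7.91% of the other cells' level, and 12 of them had every pair of KRT81-high cells below every pair of other cells. Their choice by ratio favours this too, and 6.69% of all genes tested had every pair below. CTNNA1, the alpha-catenin that ties cadherins to actin, had 0 CPM in the lowest pair, a median of 7.16 and 31.6 in the highest, against 173 to 213 CPM in other cells. It was 19.0-fold lower (interval 14.4 to 25.6), and 61.8-fold lower without the 8 cells. CYBA, a subunit of NADPH oxidase, was at 64.2 against 979 CPM, 15.3-fold lower and 63.3-fold lower without the 8 cells. EREG, an EGFR ligand, was at 8.24 against 159 CPM, GMFG, a regulator of actin branching, at 5.50 against 102 CPM, and NT5E, the CD73 ecto-nucleotidase that makes adenosine, at 14.3 against 203 CPM. Without the 8 cells these were at 2.59, 0.646 and 6.89 CPM. HEXA, a lysosomal hexosaminidase, was at 8.83 against 126 CPM, VAMP5 at 47.5 against 662 CPM, CAVIN1, a coat protein of caveolae, at 10.99 against 143 CPM, and BATF2, an interferon-induced transcription factor, at 6.08 against 105 CPM. Without the 8 cells HEXA was at 4.74, VAMP5 at 9.05, CAVIN1 at 1.72 and BATF2 at 4.96 CPM. RAB31, F2R, PAFAH1B3, PLPP2 and FABP4 were also in this set, and MTRNR2L1 was too, although its reads can come from a near-identical mitochondrial sequence. The folds of these 15 genes grew when the 8 cells were left out, which for 13 of them follows from how those cells were picked; for GMFG the ratio went from 18.5-fold to 158-fold lower.

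Several relatives of these genes, named after their values were seen, differed in other ways. LDHA, the muscle-type lactate dehydrogenase subunit, was at 1214 against 1191 CPM, a ratio of 1.02 (interval 0.994 to 1.05), so that LDHB alone of this pair of subunits stood apart. S100A8, the usual partner of S100A9, had 3 UMIs in all paired KRT81-high cells and 0 in others. CTNNB1, beta-catenin, was at 84.4 against 43.8 CPM and CTNND1, p120-catenin, at 54.4 against 60.1 CPM, beside the low CTNNA1. KRT86, whose sequence is close to KRT81, was at 0.981 CPM and KRT83 had 0 UMIs; how the counting split reads among these copies is uncertain. The linker histone HIST1H1B had 5 UMIs, 0.981 against 77.6 CPM, while HIST1H1D was at 94.0 against 65.3 CPM and HIST1H4C at 580 against 391 CPM; histone genes also share sequence.

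Gene lists, described by their tested genes, were read against the 4.19% and 3.22% of all genes at 4-fold. Of 8 keratins, 2 were at least 10-fold higher (KRT81 and KRT6B) and none lower. KRT81 is a gene of the rule, so its place in this count was set by the choice of the cells. KRT75 was not on this list. KRT7 was at 1298 against 395 CPM and KRT19 at 1046 against 286 CPM, keratins of simple epithelium, and both were higher in 18 of 18 pairs. KRT8 was lower at 737 against 1230 CPM, and KRT18 was at 2087 against 2689 CPM. Of 18 genes of epithelial junctions and their regulators, 8 were at least 4-fold higher and none 4-fold lower, with a median log2 ratio of 1.14. Examples are EPCAM at 351 against 51.0 CPM, CLDN7 at 126 against 19.99 CPM, the matriptase gene ST14 at 43.2 against 0.374 CPM, and the epithelial splicing regulator ESRP1 at 41.8 against 0.0937 CPM. PKP1, a desmosomal plakophilin, was at 31.8 against 0.0395 CPM, while CLDN1 was lower at 12.95 against 48.3 CPM.

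Mesenchymal genes went mostly the other way. Of 7 tested, 2 were at least 4-fold lower and 1 higher, and their median log2 ratio was -1.42. VIM, the intermediate filament vimentin, was at 456 against 2607 CPM, TGFBI at 30.0 against 177 CPM (18.5 CPM without the 8 cells), AXL at 43.0 against 115 CPM and ZEB1, a repressor of CDH1, at 9.81 against 32.6 CPM, all lower in 18 of 18 pairs. TWIST1, a transcription factor of the same programme, was higher at 29.6 against 0.0152 CPM.

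Other families held a few strongly different genes beside many similar ones. Of 8 clade B serpins, 5 were at least 4-fold higher, among them SERPINB4 at 33.8 against 0.0168 CPM, SERPINB7 at 21.0 against 0.111 CPM and SERPINB5 at 40.0 against 4.14 CPM; SERPINB3 and SERPINB4 are near-identical copies, and the split of reads between them is uncertain. SERPINB9, an inhibitor of granzyme B, was lower at 2.36 against 25.9 CPM, and at 0.862 CPM without the 8 cells. Of 10 S100 genes, 3 were at least 4-fold higher, including S100A2 at 587 against 19.0 CPM. S100A9 is another of these 3, and as a gene of the rule its place in the count was set by the choice of the cells. Lower were 2, S100A4 at 15.9 against 66.9 CPM and S100P at 6.28 against 35.9 CPM, which were at 10.6 and 2.15 CPM without the 8 cells. Among 10 genes of lactate and pyruvate handling, SLC16A1, a lactate transporter, was at 105 against 26.9 CPM, and SLC16A3, another lactate transporter, at 49.5 against 220 CPM.

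Growth and stress genes differed gene by gene. Of 15 growth genes only CDKN2A passed 4-fold; MYC was at 152 against 76.3 CPM, EGFR at 99.9 against 234 CPM, RB1 at 12.2 against 43.4 CPM and CCND1 at 636 against 550 CPM. None of 28 S phase genes and none of 32 G2/M genes differed 4-fold, and their median log2 ratios were -0.10 and -0.24. At 10000 UMIs per cell, the median S phase sum was 17 UMIs in KRT81-high cells and 20 in others, and the median G2/M sum 30 against 32 UMIs. Of 15 hypoxia and glycolysis genes, BNIP3, CA9 at 47.7 against 0.289 CPM and VEGFA at 32.4 against 6.17 CPM were at least 4-fold higher, and ADM was lower at 9.62 against 57.4 CPM, and at 5.602 CPM without the 8 cells. Of 12 antioxidant genes, 3 were at least 4-fold lower: NQO1 at 129 against 601 CPM, the cystine transporter SLC7A11 at 14.7 against 84.4 CPM and AKR1B10 at 9.81 against 58.7 CPM. GSTM3, a glutathione transferase, was higher at 66.3 against 0.122 CPM. The 13 mitochondrial genome genes summed to 49200 against 113762 CPM and were lower in 18 of 18 pairs. Of 12 housekeeping genes, none differed 4-fold, with a median log2 ratio of 0.21.

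Defining markers of T, NK, B, myeloid, endothelial and fibroblast cells were mostly absent. TRBC2 was the only T cell gene of 10 that was tested; CD3D, CD3E, CD3G, CD2 and CD4 were at 0 UMIs in KRT81-high cells, and the list summed to 80.9 to 198 CPM over their pairs and 0.405 to 1.71 CPM in other cells, nearly all of it TRBC2. NK and B cell markers summed to 0.393 against 0.230 CPM, with 4 of 6 at 0. Of 9 myeloid markers, CD14, TYROBP, CSF1R, ITGAM and FCGR3A were at 0, and CD68 was at 36.5 against 28.0 CPM. Endothelial markers summed to 0.981 against 0.293 CPM with 4 of 6 at 0, and fibroblast markers to 1.57 against 0.675 CPM with 5 of 6 at 0. The squamous list was not absent: its 20 genes summed to 2396 against 1016 CPM and were higher in 18 of 18 pairs, with 7 at 0 in KRT81-high cells, TP63, KRT5 and KRT14 among them. Most of this sum was CSTB, a protease inhibitor that many cell types make, at 2221 against 912 CPM, beside PI3 and SERPINB3 with the levels above. CHGA was at 0 while the neuroendocrine propeptide gene PCSK1N was at 49.9 against 0.0217 CPM. PAGE1 was the 1 cancer-testis gene tested, at 29.4 against 0.0146 CPM, and was higher in 10 of 18 pairs.

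Markers of the labelled tissue were low in both kinds of cells. The 13 Muellerian and ovarian lineage genes summed to 20.2 CPM in KRT81-high cells and 45.1 CPM in others, and 6 of them were at 0 in the former, among them SOX17, MUC16 and MSLN. PAX8 was at 1.96 against 3.62 CPM and WFDC2, the HE4 protein, at 1.18 against 19.8 CPM, with 0 UMIs left without the 8 cells. WT1 was at 1.77 against 0.00661 CPM. Of digestive lineage genes only AGR2, a disulfide isomerase of secretory epithelium, was tested, at 181 against 31.2 CPM.

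Genes that differed were in places neighbours on the chromosome. Along 11128 genes with a mean of at least 3 CPM, placed by GENCODE v29 on GRCh38, 6.53% were at least 4-fold higher and 4.29% at least 4-fold lower, with sides under 3 UMIs set to 3. In 24 places, 3 or more consecutive genes passed 4-fold in one direction, 20 higher and 4 lower, with 95 genes in all. This way of reading the data was chosen after the values were seen. The longest run of lower genes held 8 at chr17:42101404-42522611: DHX58 at 0.589 against 5.81 CPM, KAT2A at 0.196 against 11.3 CPM, RAB5C at 12.2 against 150 CPM, GHDC at 0 against 9.33 CPM, STAT5B at 0 against 6.45 CPM, STAT3, CAVIN1 at 10.99 against 143 CPM and ATP6V0A1 at 0.981 against 25.8 CPM. Their log2 ratios lay between -4.72 and -3.30.

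STAT3, the transcription factor of interleukin 6 signalling, had 16 UMIs in 119 KRT81-high cells. It was at 0 CPM in 7 of the 18 pairs and at most 7.05 CPM in the others, while other cells had 29.6 to 72.4 CPM. Its ratio was 17.95-fold lower (interval 11.1 to 31.4), and 26.1-fold lower without the 8 cells.

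On chr9:21802543-22009363 MTAP, CDKN2A and CDKN2B formed a run of higher genes. MTAP, an enzyme of methionine salvage, was at 70.1 against 0.0633 CPM and CDKN2B, the p15 inhibitor, at 14.9 against 0.00700 CPM. TUSC1, further along the same chromosome, was at 38.5 against 0.0401 CPM. The longest run of higher genes held 9 at chr10:33177492-37859110, with NRP1 at 141 against 32.6 CPM and CREM at 158 against 16.8 CPM among them and log2 ratios of 2.07 to 5.34. On chr18:63476761-67516980 the run held SERPINB5, SERPINB4, SERPINB3, SERPINB7, SERPINB2, SERPINB8, CDH7 and DSEL, and on chr12:52285913-52452126 it held KRT81, KRT75 and KRT6B. CXCL8, CXCL6, CXCL1 and CXCL3 stood together on chromosome 4, and HOXA9 at 38.3 against 0.268 CPM with HOXA10 at 19.4 against 0.243 CPM on chromosome 7. EMB, PARP8, ITGA1 and PELO were neighbours among the lower genes on chromosome 5, and ZNF430, ZNF714, ZNF431 and ZNF738 on chromosome 19. Whole chromosomes also differed: the median log2 ratio was -0.98 over 139 genes of chromosome 13 and -0.55 over 268 of chromosome 15, against 0.88 over 87 of chromosome 21 and 0.87 over 234 of chromosome X. Whether both kinds of cell belong to the labelled line was not tested.

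**Figure D3:**
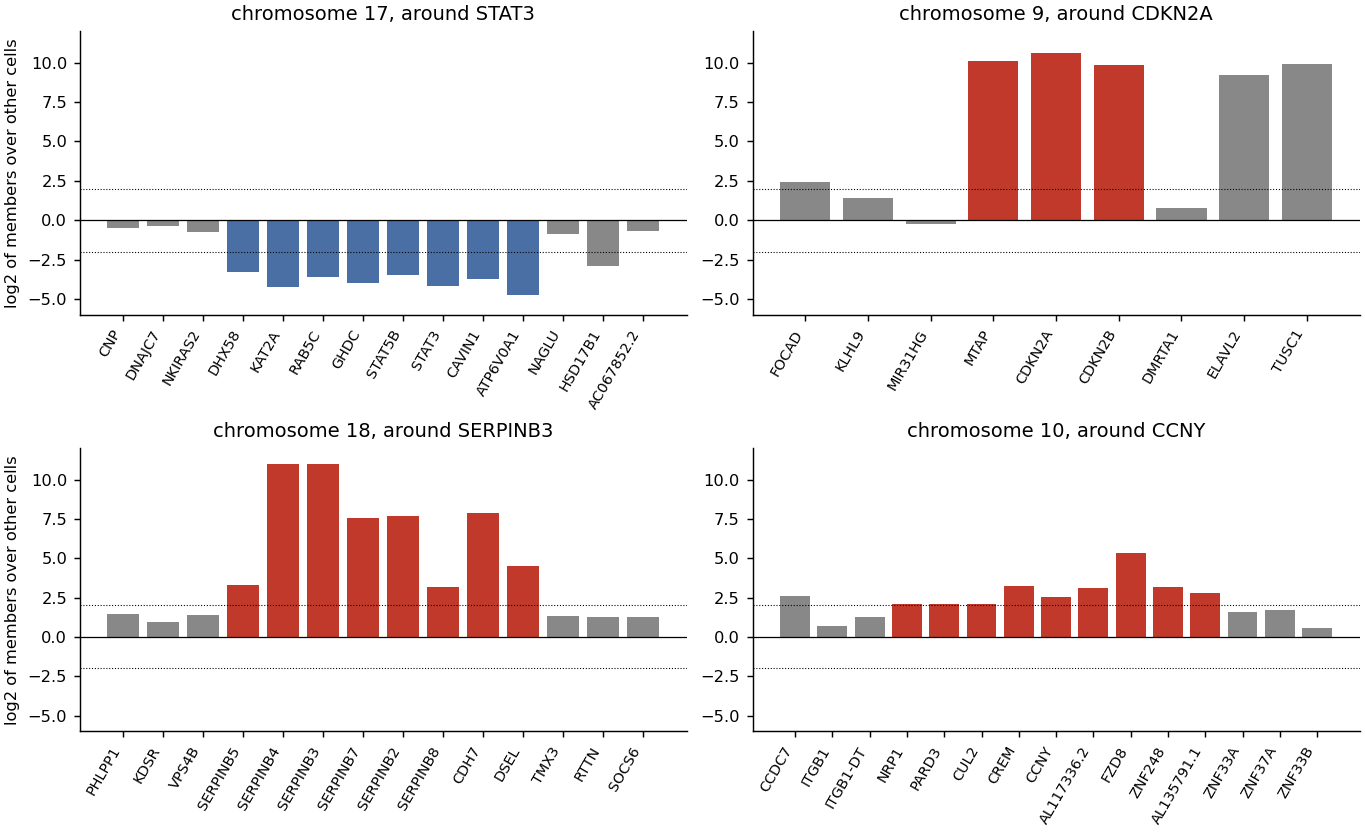
Log2 ratio of KRT81-high cells (members) over other cells (y axis) for consecutive genes along 4 chromosomes (x axis, genes in order); coloured bars are the genes of a run, grey bars their neighbours, and dotted lines mark 4-fold. The 8 genes around STAT3 lie between -4.72 and -3.30, and MTAP, CDKN2A and CDKN2B lie near 10.

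The interferon response was read by comparing pairs with high and low IRF1. The pairs were ordered by the IRF1 level of the other cells alone and divided at the widest gap, so that no transcript of a KRT81-high cell was used. Other cells had 44.1 to 72.1 CPM of IRF1 in 5 pairs (hashtags 2 and 4, 1 and 5, 1 and 2, 3 and 5, and 5 and 7) and 816 to 1382 CPM in 13 pairs. The 5 IRF1-low pairs held 29 KRT81-high cells with 1232884 UMIs and the 13 IRF1-high pairs 90 with 3861796 UMIs. Which conditions these pairs stand for was not given in the sources used here. Over 8863 genes at 10 CPM or more, 71 (0.801%) were at least 4-fold higher in the IRF1-high pairs among KRT81-high cells and 3 (0.0338%) at least 4-fold lower. Among other cells 84 (0.948%) were at least 4-fold higher and 0 (0.0%) lower; the median log2 response over all genes was -0.01 and -0.07.

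KRT81-high cells responded to the same pairs. Their IRF1 ranged from 20.9 through a median of 24.7 to 29.9 CPM over the 5 low pairs, and from 340 through 412 to 596 CPM over the 13 high pairs. No high pair overlapped with a low pair. The ratio was 17.4-fold (interval 12.2 to 25.7), from 25.1 to 437 CPM, and in other cells 18.4-fold, from 59.3 to 1094 CPM. In both states the level of IRF1 in KRT81-high cells was below that of other cells of the same pairs.

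The genes that carry the signal were present. JAK1 was at 120 CPM in KRT81-high cells against 70.7 CPM in others, IFNGR2 at 43.6 against 45.7 CPM, IFNGR1 at 6.67 against 17.8 CPM and JAK2 at 7.26 against 15.9 CPM, and none of the 8 receptor and kinase genes tested differed 4-fold. SOCS2, an inhibitor of cytokine receptors, was higher at 42.6 against 1.52 CPM, and SOCS1 was at 16.5 against 41.7 CPM.

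Promoters of 5 responding genes are shown: IRF1 as an early target that was raised by a like fold in both kinds of cell, CXCL9 and GBP1, which were higher in KRT81-high cells of the IRF1-high pairs, and CD74 and BATF2, which were lower there. Each is the 250 bases before the annotated start in the RefSeq annotation of GRCh38.p14, 5′ to 3′ on the gene's strand, which is the minus strand for all 5. Capitals mark a GAS motif (TTCNNNGAA) or a response element core (GAAANNGAAA), searched on both strands; a match is a description of these letters. IRF1 lies at chr5:132490774-132491023, CXCL9 at chr4:76007510-76007759, GBP1 at chr1:89065209-89065458, CD74 at chr5:150412911-150413160 and BATF2 at chr11:64990278-64990527. The RefSeq start used for BATF2 lies inside the longest GENCODE v29 model of the gene, so the window does not cover the region before that model's start.
IRF1: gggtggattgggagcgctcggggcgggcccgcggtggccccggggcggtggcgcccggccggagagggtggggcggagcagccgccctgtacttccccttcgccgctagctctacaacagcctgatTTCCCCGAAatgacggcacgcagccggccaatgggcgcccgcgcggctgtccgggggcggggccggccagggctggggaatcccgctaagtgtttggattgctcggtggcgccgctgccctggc
CXCL9: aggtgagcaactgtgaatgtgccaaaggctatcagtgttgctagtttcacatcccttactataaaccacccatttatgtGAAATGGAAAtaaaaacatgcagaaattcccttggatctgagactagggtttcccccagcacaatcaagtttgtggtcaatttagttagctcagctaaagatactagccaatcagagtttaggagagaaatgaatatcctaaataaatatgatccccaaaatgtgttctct
GBP1: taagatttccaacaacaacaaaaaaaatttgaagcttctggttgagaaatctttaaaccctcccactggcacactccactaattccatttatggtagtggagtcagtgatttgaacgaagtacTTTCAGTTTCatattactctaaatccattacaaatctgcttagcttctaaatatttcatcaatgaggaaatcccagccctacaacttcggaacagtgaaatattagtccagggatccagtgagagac
CD74: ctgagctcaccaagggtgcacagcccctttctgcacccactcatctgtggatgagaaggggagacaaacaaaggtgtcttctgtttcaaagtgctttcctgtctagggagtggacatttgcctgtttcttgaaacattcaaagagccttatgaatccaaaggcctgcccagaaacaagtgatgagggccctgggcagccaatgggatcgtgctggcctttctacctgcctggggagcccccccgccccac
BATF2: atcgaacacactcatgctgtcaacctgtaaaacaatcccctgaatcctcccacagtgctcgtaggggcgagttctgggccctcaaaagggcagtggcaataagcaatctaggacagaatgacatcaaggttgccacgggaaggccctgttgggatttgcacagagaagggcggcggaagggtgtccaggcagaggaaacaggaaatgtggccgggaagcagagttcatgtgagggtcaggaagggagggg
The IRF1 window held 1 GAS motif, 124 bases before the start, and the CXCL9 and GBP1 windows each held 1 response element core, 171 and 127 bases before the start. The CD74 and BATF2 windows held neither. Of all 35116 windows in the table, 6.57% held the GAS motif and 3.02% the response element core. Only 93 of the 130 measured interferon list genes (71.5%) had a window, so no comparison of motifs was made across the lists.

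Over the 8 interferon lists, 130 of 152 genes were measured. At least 4-fold higher in the IRF1-high pairs were 50 of them in KRT81-high cells and 54 in other cells, and 39 were so in both. All genes past 4-fold numbered 71 and 84, so most of them were on these lists, which were chosen with earlier results of these data known. The median log2 response was 1.58 in KRT81-high cells and 1.77 in others. Summed over the lists, KRT81-high cells went from 5935 to 14599 CPM, 2.46-fold (interval 2.40 to 2.52), and other cells from 9531 to 28862 CPM, 3.03-fold. By gene, the response was at least 2-fold smaller in KRT81-high cells for 29 genes and at least 2-fold larger for 11. In 24 genes KRT81-high cells had under 3 UMIs in the low pairs, which were set to 3, so that a rise is understated. Where the high pairs also had under 3 UMIs, as for CCL2, both sides were set. The value then reflects only the UMI totals of the low and high pairs.

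**Figure D4:**
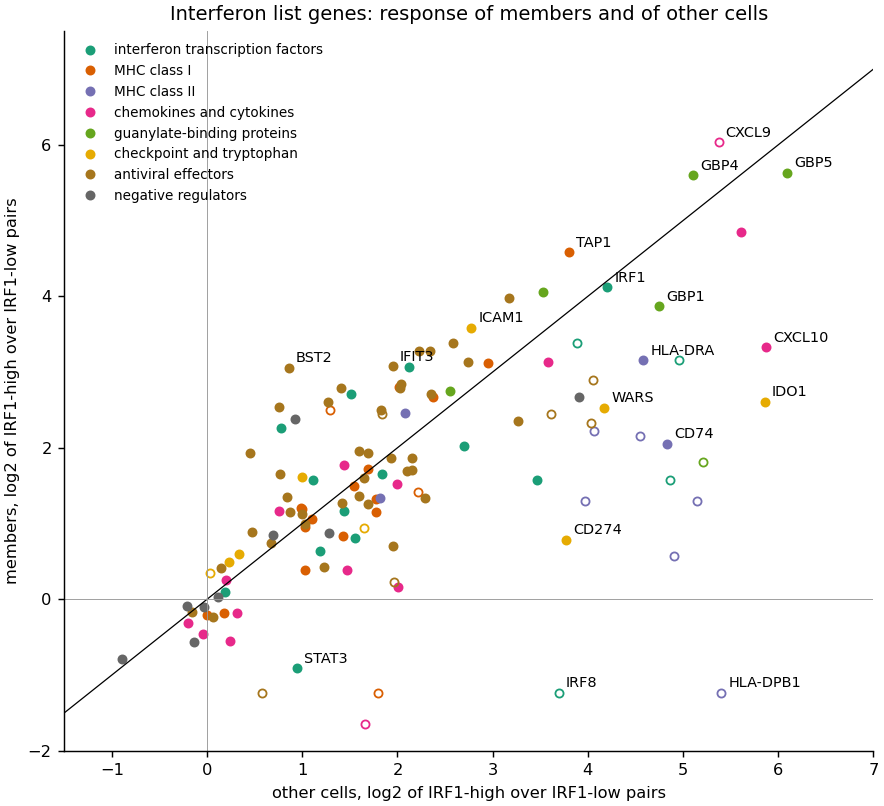
Log2 ratio of IRF1-high over IRF1-low pairs for 130 interferon list genes in other cells (x axis) and in KRT81-high cells, labelled members (y axis), coloured by list; open circles are genes with under 3 UMIs in the KRT81-high cells of the low pairs. IRF1 lies near the line of equal response, and IDO1 and CD74 lie well below it. HLA-DPB1 is drawn at -1.23 because its 0 UMIs in the low pairs were set to 3, while its observed level in the high pairs was 1.04 CPM.

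Guanylate-binding proteins, which attack intracellular pathogens, had the largest summed ratio of the interferon lists in KRT81-high cells and also in other cells. Summed over 6 genes they went from 124 to 1859 CPM, against 62.4 to 1177 CPM in others. GBP1 ranged from 27.8 through 52.9 to 181 CPM in the low pairs and from 358 through 1190 to 2143 CPM in the high pairs; its ratio was 14.6-fold (interval 12.0 to 17.99), from 81.9 to 1198 CPM, against 26.8-fold in other cells, from 18.1 to 486 CPM. GBP1 was thus 2.47 times the level of other cells in the high pairs. GBP5 went from 3.24 to 161 CPM, GBP4 from 3.24 to 157 CPM and GBP2 from 9.73 to 161 CPM, ratios of 49.6-fold, 48.5-fold and 16.6-fold. The low levels of GBP5 and GBP4 rest on few UMIs. In other cells GBP5 went from 1.41 to 96.2 CPM, GBP4 from 9.14 to 314 CPM and GBP2 from 12.0 to 139 CPM. GBP7 had 1 UMI in the low pairs and 8.55 CPM in the high pairs, against 18.03 CPM in other cells.

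The CXCR3 ligand chemokines, which draw T cells, were higher in the IRF1-high pairs in both kinds of cell. Their levels against other cells of the high pairs did not share one direction. CXCL9 had 1 UMI in the low pairs (0.811 CPM) and ranged from 7.01 through 156 to 381 CPM over the high pairs, with 160 CPM summed; the ratio of these observed levels was 197-fold with an interval of 35.2 to 7793, and with 3 UMIs set in the low pairs, as in the list counts and the plot, it was 65.7-fold. Other cells went from 0.521 to 21.6 CPM, so CXCL9 in KRT81-high cells of the high pairs was 7.41 times that of the others. CXCL10 went from 9.73 to 97.9 CPM, 10.1-fold (interval 5.69 to 19.6), against 58.6-fold in other cells, which reached 200 CPM. CXCL11 went from 4.06 to 117 CPM and in others from 1.90 to 92.9 CPM. CXCL8 was at 537 CPM in the low pairs and 431 CPM in the high pairs. CCL2, a monocyte chemokine, had 1 UMI in the low pairs and 0 in the high pairs, where other cells had 11.4 CPM; 3 UMIs in the high pairs would be 0.777 CPM.

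Antigen presentation by MHC class I responded from a lower level. The list summed to 2938 CPM in the low pairs and 5209 CPM in the high pairs of KRT81-high cells, and to 4822 and 10848 CPM in others. B2M, the light chain, ranged from 431 to 645 CPM over the low pairs and from 517 through 1122 to 1882 CPM over the high pairs, so that these ranges overlapped. It went from 503 to 1159 CPM, 2.30-fold, and in others from 1883 to 3734 CPM, 1.98-fold. HLA-E went from 34.9 to 222 CPM, 6.38-fold (interval 4.69 to 8.88), against 5.19-fold in other cells. The peptide transporter TAP1 went from 6.49 to 156 CPM, 24.0-fold (interval 12.1 to 55.8), against 13.9-fold, and the immunoproteasome subunit PSMB8 responded 6.998-fold against 4.05-fold. The HLA genes are near-identical in parts, and the split of reads between them is uncertain.

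MHC class II was the list with the widest gap. It summed to 40.6 CPM in the low and 181 CPM in the high pairs of KRT81-high cells, against 63.2 and 912 CPM in others. The median log2 response was 1.69 against 4.57. For 6 of the 10 genes measured, KRT81-high cells had under 3 UMIs in the low pairs, which were set to 3. Their median response depends on this setting. Without the 8 cells the sums in KRT81-high cells were 41.8 and 153 CPM. CIITA, the transactivator of these genes, went from 0.811 CPM (1 UMI) to 21.8 CPM, beside 0.740 to 23.04 CPM in other cells. CD74, the invariant chain, ranged from 0 through 12.6 to 21.3 CPM over the low pairs and from 5.35 through 54.4 to 294 CPM over the high pairs, so that these overlapped. Its summed level went from 11.4 to 47.1 CPM, 4.15-fold (interval 2.41 to 7.74), against 28.5-fold in others, from 18.3 to 521 CPM. Without the 8 cells CD74 was at 25.01 CPM in the high pairs, a 2.01-fold ratio and 4.75% of the level of other cells. HLA-DRA went from 2.43 CPM (3 UMIs) to 21.8 CPM, an 8.94-fold ratio (interval 2.96 to 44.2), against 3.73 to 89.4 CPM. HLA-DPA1 was at 0 UMIs and then 5.96 CPM, against 52.3 CPM in others, HLA-DQB1 at 0 UMIs and then 3.63 CPM, against 10.8 CPM, and HLA-DPB1 at 0 UMIs and then 4 UMIs, against 14.1 CPM.

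IDO1, WARS and CD274, from the list of checkpoint and tryptophan genes, had smaller ratios than in other cells. The list summed to a 4.02-fold ratio in KRT81-high cells, against 10.2-fold in others. Of its 9 genes measured, 3 had a response at least 2-fold smaller in KRT81-high cells and 0 at least 2-fold larger. CD47 went the other way by less, from 77.1 to 235 CPM, against 56.7 to 113 CPM in other cells. IDO1, which breaks down tryptophan, ranged from 16.7 through 24.3 to 42.6 CPM over the low pairs of KRT81-high cells and from 24.1 through 151 to 403 CPM over the high pairs. It went from 27.6 to 168 CPM, 6.10-fold (interval 4.32 to 8.89) and 5.10-fold without the 8 cells, while other cells went from 28.0 to 1624 CPM, 58.1-fold. The levels in the low pairs were thus alike and those in the high pairs were not. WARS, the tryptophanyl-tRNA synthetase, went from 69.8 to 402 CPM, 5.77-fold, against 17.98-fold in other cells. CD274, which encodes PD-L1, went from 12.2 to 21.0 CPM, 1.72-fold (interval 0.986 to 3.22), against 13.6-fold, from 2.34 to 31.9 CPM. PDCD1LG2, which encodes PD-L2, had 2 UMIs in the low pairs and 6.47 CPM in the high pairs, an observed ratio of 3.99 (interval 0.995 to 34.8) and 2.66 with 3 UMIs set in the low pairs, and other cells went from 0.0508 to 3.44 CPM. LGALS9 had 2 and 5 UMIs, against 1.56 and 10.0 CPM in others.

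Antiviral effectors were lower in KRT81-high cells in both kinds of pair, and their summed ratio was larger than in other cells. The list summed to 1053 and 3511 CPM in KRT81-high cells, 3.34-fold (interval 3.15 to 3.53), and to 3250 and 9041 CPM in others, 2.78-fold. Of 45 genes, 19 responded at least 4-fold in KRT81-high cells and 16 in others. IFIT3, which binds viral RNA complexes, went from 12.2 to 103 CPM, 8.45-fold, against 3.87-fold in other cells, from 108 to 418 CPM. BST2, the tetherin that holds virions, went from 8.11 to 67.6 CPM, 8.33-fold (interval 4.46 to 17.6) and 16.8-fold without the 8 cells, against 1.81-fold, from 137 to 247 CPM. SAMD9L went from 3.24 to 51.0 CPM, 15.7-fold, against 9.03-fold, and ICAM1, an adhesion ligand of leukocytes, from 4.87 to 58.5 CPM, 12.0-fold (interval 5.44 to 33.1), against 6.85-fold. In the high pairs 14 of the 45 genes were at least 4-fold lower than in other cells and none at least 4-fold higher; over all 8863 genes these shares were 4.07% and 5.88%, and in the low pairs 4.28% and 5.93%.

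Transcription factors of the response split. IRF9, part of the complex that answers type I interferon, went from 9.73 to 63.7 CPM, 6.54-fold, against 2.86-fold in others, and SP110 responded 8.39-fold against 4.34-fold. NLRC5, the transactivator of MHC class I genes, had 0 UMIs in the low pairs and 25.4 CPM in the high pairs. With 3 UMIs set in the low pairs its ratio was 10.4-fold. STAT3 was at 4.87 and 2.59 CPM in KRT81-high cells and went from 33.1 to 63.8 CPM in others. BATF2 had 3 UMIs in the low pairs (2.43 CPM) and 7.25 CPM in the high pairs, against 12.3 and 135 CPM. IRF8, a factor of myeloid cells, had 0 and 4 UMIs, against 15.8 CPM in other cells of the high pairs. ETV7 had 2 UMIs in the low pairs and 7.25 CPM in the high pairs (4.55 CPM without the 8 cells), against 52.5 CPM.

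**Figure D5:**
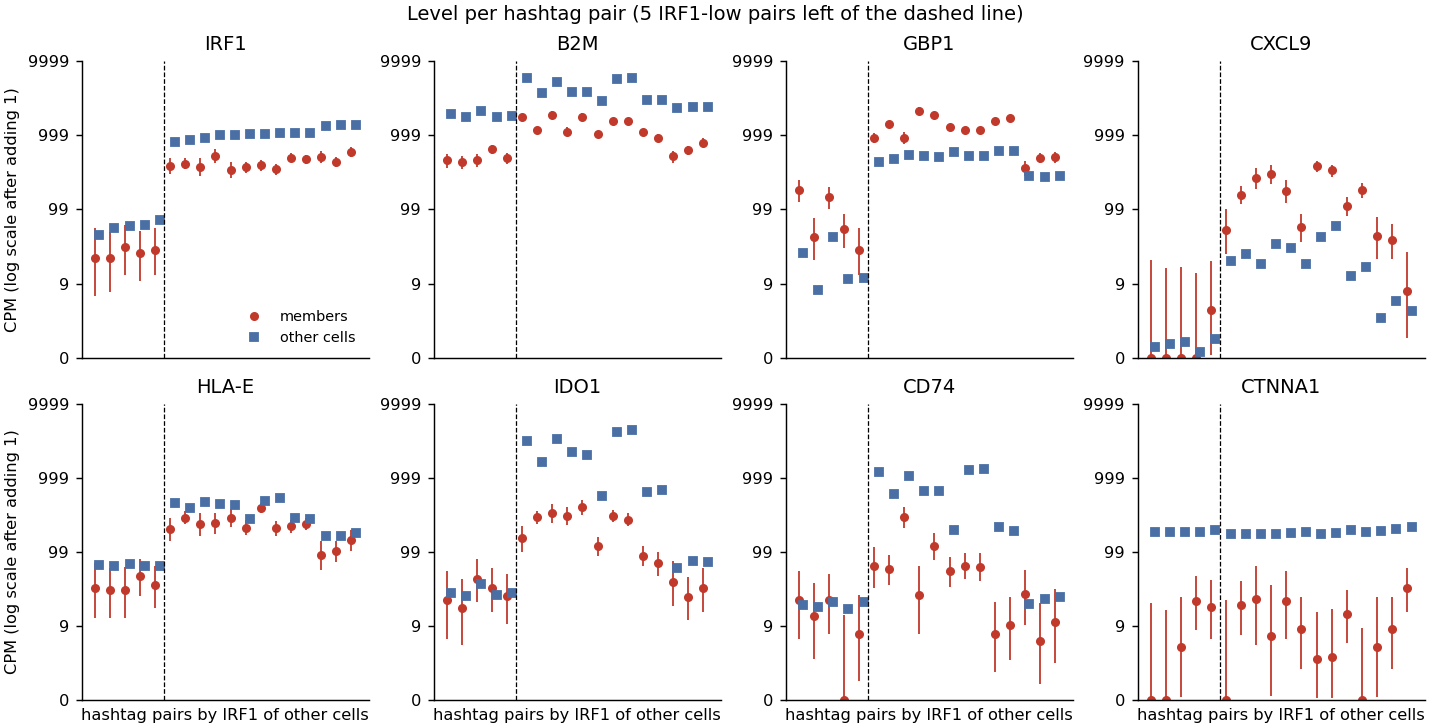
Level of 8 genes in each of the 18 hashtag pairs (x axis, ordered by the IRF1 of other cells; y axis, CPM on a log axis after adding 1), with KRT81-high cells (members) as circles with 95% counting intervals and other cells as squares; the dashed line separates 5 IRF1-low from 13 IRF1-high pairs. IRF1 of the KRT81-high cells reaches 340 CPM or more in all 13 high pairs, and CTNNA1 stays at or under 31.6 CPM in all 18.

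Within the 13 IRF1-high pairs, the levels of KRT81-high cells followed those of other cells for most lists. The points share the pool and the sequencing, the KRT81-high cells of a pair number 2 to 12, and the correlations are a description with no p. The 8 cells that also carried transcripts of the other cells are included. Their part in these correlations was not tested. For the summed interferon lists Pearson's r was 0.90 and Spearman's rho 0.88 (0.89 for r without the 2 pairs farthest from the median). For antiviral effectors r was 0.94 and rho 0.93, for MHC class I 0.91 and 0.90, for MHC class II 0.85 and 0.85, and for WARS 0.95 and 0.94. Guanylate-binding proteins followed less closely, with r 0.75 and rho 0.52 (0.53 for r without the 2 pairs). Interferon transcription factors had r 0.80 and rho 0.68 (0.57 for r without the 2 pairs). Negative regulators had r 0.30 and rho 0.48. For IRF1 itself r was 0.57 and rho 0.49, and for the summed chemokine and cytokine list r was -0.27 and rho -0.16. Single chemokines differed from this sum, with r 0.84 for CXCL9, 0.75 for CXCL8, 0.74 for CXCL11 and 0.32 for CXCL10. MHC class II of KRT81-high cells was highest in hashtags 2 and 5, a pair with 2 of these cells. The pair with the highest sum of the interferon lists was hashtags 7 and 8 among other cells and 4 and 7 among KRT81-high cells.

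Most responding genes were on the lists, and examples outside them follow. AIM2, a sensor of cytosolic DNA, had 0 UMIs in the low pairs and 13.5 CPM in the high pairs of KRT81-high cells. With 3 UMIs set in the low pairs the AIM2 ratio was 5.53-fold, and the lower limit of its counting interval was 4.34-fold. Other cells also responded, from 0.0676 to 1.29 CPM, 19.0-fold. EPSTI1 had 2 UMIs in the low pairs and 12.9 CPM in the high pairs, against 6.06 and 124 CPM. NNMT, a nicotinamide methyltransferase, went from 26.8 to 127 CPM, 4.75-fold (interval 3.34 to 6.98), against 2.99-fold. MSMP had 0 UMIs in the low pairs and 31.1 CPM in the high pairs, while other cells were at 0.912 and 0.776 CPM. Its ratio in KRT81-high cells was 12.8-fold with 3 UMIs set in the low pairs, with a lower limit of 10.2-fold. The 3 genes at least 4-fold lower in KRT81-high cells of the high pairs were RARRES1 at 24.3 and then 1.04 CPM, the cholesterol exporter ABCA1 at 4.87 and then 0.518 CPM, and ISYNA1 at 3.24 and then 0.777 CPM, named after their values were seen; ABCA1 and ISYNA1 rest on few UMIs. In other cells RARRES1 was at 10.8 and 12.5 CPM. By smaller ratios, the transcription factor SPDEF went from 51.1 to 23.3 CPM and the Notch target HES1 from 64.9 to 29.8 CPM.

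KRT81-high cells also varied among themselves. At 10000 UMIs per cell, the genes with the largest ratio of variance to mean were the ferritin chains FTL at 47.8 and FTH1 at 28.3, then CXCL8 at 19.6, KRT81 at 19.2 and IDO1 at 12.0. They were followed by MALAT1, HIST1H4C, B2M, CXCL10 and VIM, at 11.2 to 7.39. IDO1, B2M and CXCL10 also differ between IRF1-low and IRF1-high pairs, and their spread was not divided by pair.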

How the data were processed

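Values were UMI counts per gene and per hashtag in each cell barcode, as deposited by the authors in 1 matrix of 7804 barcodes, 36601 genes and 8 hashtags (246744793 gene UMIs and 14124227 hashtag UMIs). The counts came from Cell Ranger 5.0.1 per the file headers and 2.1.1 per the submitters' processing notes, on GRCh38. The cell filter removed 603 barcodes. Python 3.11.15, numpy 2.4.6, pandas 2.3.3 and scipy 1.17.1 were used. No doublet caller was run; the hashtag pair rule leaves out barcodes with more than 2 strong hashtags, and free RNA was not subtracted. The map of hashtags to conditions was not used here.

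KRT81-high cells were compared with other cells within pairs, weighting the other cells' CPM by the UMIs of the KRT81-high cells of each pair. Genes needed a mean of at least 10 CPM, and a side under 3 UMIs was set to 3 UMIs in counts, medians, lists and plots; for a named gene with 1 to 3 UMIs on one side, the ratio of the observed levels with its interval is given where a ratio is given. Ratios have exact conditional Poisson intervals scaled to the weighted level (95%), and shares Clopper-Pearson intervals. The named genes are the 5 markers, the 15 highest and 15 lowest ratios among genes at 100 CPM or more (mitochondrial genes left out), the 2 to 5 highest or 10-fold different genes of each of 37 lists and, for the response, the 10 largest responses in KRT81-high cells and the 10 largest differences from other cells; other genes were chosen after their values were seen. The cells and the lists were chosen with earlier results of these data known. The code that counts genes past a fold was checked on simulated counts with known changes. Alternatives were other thresholds, gene sums, filters, thinning, weighting and pair classes. Some genes are not reported here.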

Additional observations from a re-analysis of the deposited data

Results flagged for a closer look

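Barcodes outside the comparisons carried the same transcripts. The 65 KRT81-high cells without a hashtag pair had 3113 CPM of KRT81, against 4.63 CPM in the 1022 other cells without a pair, where 3 UMIs would be 0.0607 CPM. Their LDHB was at 312 CPM, S100A9 at 315 CPM and CDKN2A at 101 CPM. STAT3 was at 18.7 CPM and CTNNA1 at 66.5 CPM in them, against 3.14 and 9.81 CPM in KRT81-high cells with a pair. They also held more hashtag UMIs, with a median of 2570 against 970.

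The cell filter removed 8 barcodes that reached 1000 CPM of KRT81, LDHB and S100A9 summed. Of these, 5 had under 500 genes and 6 had over 20% mitochondrial UMIs, and their medians were 757 UMIs, 437.5 genes and 46.3% mitochondrial UMIs. KRT81 was at 3213 CPM in them, LDHB at 454 CPM and CDKN2A at 265 CPM. STAT3 and CTNNA1 had 0 UMIs, where 3 UMIs would be 113 CPM.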

How the results depend on the processing

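No paired analysis was possible because the labels give no replicate numbers and the conditions were pooled into 1 suspension; the hashtag pairs mark cells of this pool and are no replicates. The 5 main results were repeated under alternatives, 12 for the number of cells and 15 for each of the others. The median interferon responses of KRT81-high cells and of other cells stayed above 0 in all 15. One alternative, the 5 pairs of lowest IRF1 as the low class, is the same split as the main one and could not differ. The other main results are counts, which have no sign to reverse. The 184 KRT81-high cells became 104 where KRT81 was left out of the sum, and lay between 123 and 192 under the other alternatives. The 150 genes at least 10-fold higher became 616 with a mean of at least 1 CPM, where 13292 genes were tested, and 119 to 164 otherwise. The 90 genes at least 10-fold lower became 198 with that filter, 137 without KRT81 in the sum, and 0 when all cells were summed with or without a pair and with no weights, a sum that takes in the 65 cells without a pair and their 48.6% level of the 13 low genes; they numbered 89 to 134 otherwise, with 134 without the 8 cells. The median log2 interferon response of KRT81-high cells, 1.58, was 0.81 with cells thinned to 10000 UMIs, where the 3 UMIs set for missing values weigh more by construction. It was 1.45 with the 4 pairs of lowest IRF1 as the low class, 1.86 over 84 genes at 50 CPM or more and 1.41 without the 8 cells. That of other cells, 1.77, was 1.67 and 1.88 under the first and second of these 3. The causes of all these changes were not tested, and this holds for the 3 UMIs set and for the 65 cells without a pair too. Of 180 values of named genes under alternatives, 155 stayed within the 95% counting interval of the value given, 25 moved out of it and 0 changed sign. Leaving out the 8 cells and keeping cells of 20000 to 60000 UMIs were added after the data were seen. Depth limits the low pairs most, since 3 UMIs in their 29 KRT81-high cells are 2.43 CPM.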
